A study of Mus musculus with 47 samples.

Results

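Crypts and villi of the small intestine were compared in mice that had eaten NWD1, a purified diet modelled on Western intake, for 1 year. The arrays were chosen by their labels: 4 crypt and 4 villus arrays of wild type C57BL/6 mice on NWD1, which make 8 of the 47 arrays of the study. The study measured total RNA of crypts and villi on an Affymetrix mouse 3' expression array, in mice with a dietary or a genetic risk of intestinal tumours and in their controls. Its dietary arm used wild type C57BL/6 mice that were put on Ain76A (the purified control diet), NWD1 or NWD2 at weaning and fed them for 1 year, which the labels also give as the age, and its genetic arm used wild type, Apc1638N/+ and p21-/- mice on Ain76A at 3 months. NWD1 is higher in fat and lower in calcium, vitamin D3 and methyl donors than its control diet, and NWD2 is NWD1 with calcium and vitamin D3 raised. For comparison, the same crypt-villus difference was taken on Ain76A at 1 year (4 crypt and 4 villus arrays) and on NWD2 (4 crypt and 3 villus arrays). Nothing in the labels ties each replicate to a mouse of its own, so the p-values measure the spread between arrays of a group, which may be technical. In the tests of single genes this spread was estimated over all 47 arrays, not over the 8 on NWD1 alone.

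The epithelium of the small intestine renews itself from the crypts. Stem cells at the crypt base divide next to Paneth cells, which secrete antimicrobial proteins, and their progeny divide several more times before they leave the crypt, stop dividing and become absorptive enterocytes, mucus-secreting goblet cells, hormone-secreting enteroendocrine cells or chemosensory tuft cells on the villus. Wnt signals keep crypt cells dividing, and BMP and hedgehog signals accompany differentiation on the villus. Crypt and villus preparations are mixtures, so a lower level in one can come from fewer cells of a type or from less RNA per cell, and these cannot be told apart here.

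After filtering, 7624 genes, each represented by 1 probe set, could be tested on NWD1. Each crypt array had a value for 21146 to 23068 probe sets and each villus array for 21220 to 22381, and replicates correlated across genes at 0.97 to 0.98 in crypts and 0.95 to 0.982 in villi. A score was built from the genes whose levels were 2 log2 units or more apart between the crypts and villi of the 3-month wild type mice (76 higher in crypts, 103 higher in villi). On it, the NWD1 crypt arrays scored 1.93, 2.23, 1.98 and 2.62 and the villus arrays -0.50, -0.54, -1.80 and -2.21. Villus arrays 1 and 2 therefore stood apart from villus arrays 3 and 4, toward the crypts, while the 4 villus arrays on Ain76A scored -2.63 to -1.99. The crypt and villus arrays on NWD1 did not overlap on this score (2.19 ± 0.32 against -1.26 ± 0.87, SD, n = 4 each; two-sided exact permutation p = 0.0286, the smallest that 4 against 4 allows, and 0.143 adjusted over 5 comparisons of the score). Between NWD1 and Ain76A villi the score differed by 1.00, with an exact permutation p of 0.0857. Results are given with all 8 arrays, and those that rest on villus arrays 1 and 2 also without them. These arrays were picked because they scored toward the crypts, so leaving them out tends to widen crypt-villus differences. It also leaves only villus arrays 3 and 4 on NWD1, which lowers the power of the tests.

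Of the 7624 genes, 1877 (24.6%) were higher in crypts and 1742 (22.8%) were higher in villi at an adjusted p under 0.05 in limma with Benjamini-Hochberg adjustment, together 3619 (47.5%), and 4097 had an unadjusted p under 0.05. All p-values below that are called adjusted come from this fit. The shares of 24.6% and 22.8% are the background for the list counts below. The values of the 4 crypt and the 4 villus arrays did not overlap for 3457 of the called genes. A call and a lack of overlap rest on the same array values, so this count is a description. How many of all 7624 tested genes lacked overlap was not counted. The median difference over all tested genes was -0.01 on the log2 scale, crypt minus villus, on which 1 unit is a doubling. The 2 sides were not alike at the extremes: 28 genes were higher in villi by a log2 of 3 or more and 2 were higher in crypts by that much. At a log2 of 2 or more the counts were 156 and 132, and at 1 or more 878 and 958. Without villus arrays 1 and 2 the test called 3138 of 7448 genes, of which 3009 were among the 3619.

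**Figure D1:**
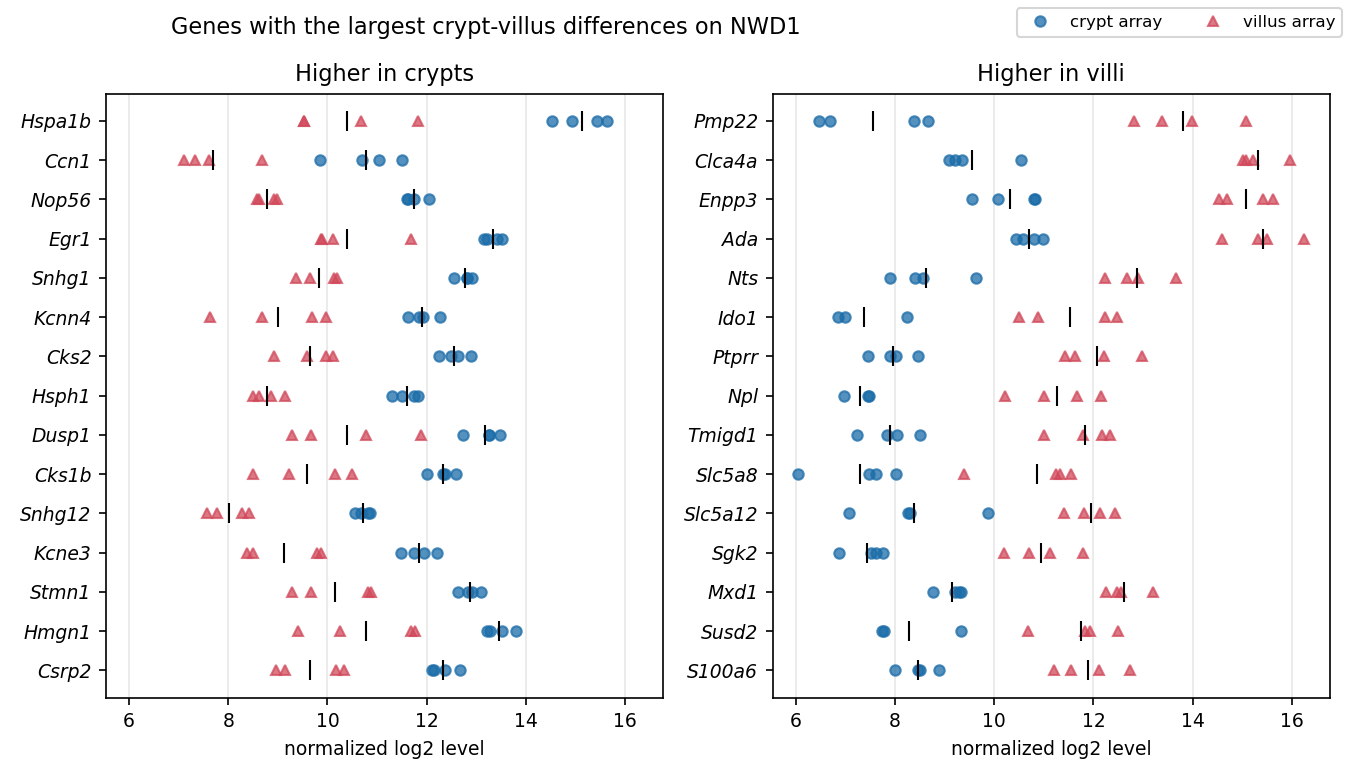
Normalized log2 levels on the 4 crypt and 4 villus arrays on NWD1 of the 15 called genes with the largest differences in each direction whose values did not overlap. Points are single arrays; Hspa1b stands apart among the crypt genes with a log2 difference of 4.74, and Pmp22 and Clca4a among the villus genes with -6.26 and -5.77.

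The promoters of a few of the genes that differed are shown because cell cycle genes and brush border genes are known to be controlled by different sequence elements. The sequences are the 150 bases before the annotated start in RefSeq on GRCm38.p6, 5′ to 3′ on the strand of the gene, with motif matches in capitals. The motifs searched, on both strands, were the box CCAAT bound by NF-Y, the core TTTGAA of the cell cycle homology region, the E2F motif TTTNNCGC, the HNF4 motif CAAAGTCC, a motif of GATA factors, AGATAA, and the CDX motif TTTATNG. The first 3 genes act in mitosis, Mcm5 is a subunit of the helicase that opens DNA for replication, and Treh and Ace are enzymes of the brush border. A match is a description, not a site or a cause. The genes shown are not in every case those with the largest differences, and their matches need not be typical of their lists. The windows lie at chr3:89418292-89418441 for Cks1b, chr4:118437344-118437493 for Cdc20, chr10:69352913-69353062 for Cdk1, all on the minus strand, and at chr8:75109359-75109508 for Mcm5, chr9:44673083-44673232 for Treh and chr11:105967798-105967947 for Ace, all on the plus strand.
Cks1b: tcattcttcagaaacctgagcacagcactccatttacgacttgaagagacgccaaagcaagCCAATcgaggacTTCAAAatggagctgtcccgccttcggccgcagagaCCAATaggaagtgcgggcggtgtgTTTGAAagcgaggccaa
Cdc20: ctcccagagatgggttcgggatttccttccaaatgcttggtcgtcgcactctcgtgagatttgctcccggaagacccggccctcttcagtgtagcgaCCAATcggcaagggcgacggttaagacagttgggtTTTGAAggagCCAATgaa
Cdk1: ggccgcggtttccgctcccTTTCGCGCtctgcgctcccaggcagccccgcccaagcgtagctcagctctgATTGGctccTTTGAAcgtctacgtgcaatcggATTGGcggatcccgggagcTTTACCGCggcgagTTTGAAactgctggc
Mcm5: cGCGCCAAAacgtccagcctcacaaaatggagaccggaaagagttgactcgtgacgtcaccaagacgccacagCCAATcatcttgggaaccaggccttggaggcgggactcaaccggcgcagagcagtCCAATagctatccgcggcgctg
Treh: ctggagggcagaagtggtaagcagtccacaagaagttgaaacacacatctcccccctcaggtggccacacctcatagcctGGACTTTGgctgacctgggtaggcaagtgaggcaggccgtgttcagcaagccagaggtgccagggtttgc
Ace: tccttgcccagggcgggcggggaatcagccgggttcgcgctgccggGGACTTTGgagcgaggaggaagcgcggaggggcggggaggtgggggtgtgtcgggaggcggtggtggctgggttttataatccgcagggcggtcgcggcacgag

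In these windows Cks1b held 2 CCAAT boxes and 2 TTTGAA elements, Cdc20 held 2 CCAAT boxes with a TTTGAA element between them, and Cdk1 held 2 of each with 2 E2F matches, while Treh and Ace held only an HNF4 match. Over the 250 bases before the start, CCAAT was held by 34.5% of the 27025 RefSeq promoters and TTTGAA by 16.3%. Promoters of the tested genes held them in 36.2% and 10.4% of cases. Of the tested mitosis genes 34 matched a promoter, and 27 of these (79.4%) held CCAAT and 15 (44.1%) held TTTGAA. The DNA replication genes held CCAAT in 16 of 26 promoters (61.5%) and TTTGAA in 1, and E2F in 6 (23.1%, against 4.39% of all promoters and 7.70% of those of the tested genes). Ribosome biogenesis genes held CCAAT in 6 of 26 promoters (23.1%), a share below that of all promoters, and E2F in 5 (19.2%). Mitosis genes held E2F in 4 of 34 (11.8%). Among brush border hydrolases 3 of 12 promoters held CAAAGTCC, those of Treh and Ace among them, and among lipid absorption and chylomicron genes 0 of 17. The share was 1.22% of all promoters and 1.51% of those of the tested genes. It was 2.19% for the villus-higher and 1.3% for the crypt-higher called genes. Taken over every called gene the shares lay closer together: CCAAT in 39.9% of the crypt-higher and 34.2% of the villus-higher genes, and E2F in 11.3% and 5.16%. Among called genes with differences of 2 or more on the log2 scale, CCAAT was held by 56.1% of the crypt-higher and 41.8% of the villus-higher promoters, and TTTATNG by 6.54% and 15.6%. The share for TTTATNG was 10.2% of all promoters and 6.36% of those of the tested genes.

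Cell division set the crypts apart. Of the 49 listed mitosis genes on the array 40 could be tested, and 39 were higher in crypts, 0 in villi; their median difference was 2.10 against -0.01 over all tested genes, of which 24.6% were called in that direction. Cks2, a small subunit of the cyclin-dependent kinases, measured 12.63, 12.24, 12.48 and 12.89 on the crypt arrays and 10.12, 9.96, 9.58 and 8.92 on the villus arrays, a difference of 2.91 ± 0.31 (SE; 7.51-fold; adjusted p = 1.29e-08). Cdk1, the kinase that drives entry into mitosis, measured 11.41, 11.08, 11.61 and 11.86 in crypts and 9.59, 9.49, 8.29 and 8.37 in villi (2.55 ± 0.34). The groups did not overlap for either gene, and in villi the lower pair of values came from arrays 3 and 4. Cks1b (2.73), Stmn1, a microtubule destabiliser (2.71), Ccna2, the cyclin of S phase and G2 (2.60), and Cdc20, the activator of the anaphase-promoting complex (2.56), followed. Securin, Pttg1, was the member that did not pass (0.51 ± 0.22, adjusted p = 0.0518). Over the 27 mitosis genes measured on all 8 arrays the mean level was 11.32, 11.02, 11.42 and 11.62 in crypts and 9.76, 9.61, 8.81 and 8.55 in villi. Without villus arrays 1 and 2 the median of the 27 members that could still be tested was 2.85, against 2.33 for the same genes with all arrays, and 26 of the 27 were called.

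DNA replication genes followed the same side. Of 43 on the array 31 were tested, with 27 higher in crypts and 0 in villi (median 1.61). Prim1, the catalytic subunit of primase, measured 10.74, 10.57, 11.17 and 11.18 in crypts and 9.06, 8.89, 7.50 and 7.71 in villi (2.62 ± 0.35, 6.17-fold, adjusted p = 3.9e-07). Mcm7, another subunit of the replicative helicase, measured 12.29 to 12.83 in crypts and 9.48 to 10.57 in villi (2.38 ± 0.26). The groups did not overlap for Prim1 or Mcm7. Mcm4 (2.47), Mcm3 (2.33), Mcm5 (2.23, measured on 3 of the 4 villus arrays) and Uhrf1, which carries DNA methylation through replication (2.21), completed the largest differences. The members that did not pass were Ccne2 (-0.23), Pola2 (0.46), Mcm2 (0.51) and Rfc1 (0.62). Another 12 members could not be tested; of these, the polymerase subunit Pole had values on 4 crypt and 0 villus arrays and the origin recognition subunit Orc6 on 4 and 2.

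The regulators of entry into the cell cycle went both ways. Of 17 tested, 7 were higher in crypts and 5 in villi, with a median of 0.25. Cdk4 (1.80 ± 0.31), the kinase of early G1, and its partner cyclins Ccnd2 (1.74) and Ccnd1 (1.34) were higher in crypts. Cdkn1a, which encodes the inhibitor p21 and is the gene deleted in the p21-/- mice of the genetic arm, measured 12.10, 11.88, 11.99 and 11.67 in crypts and 12.74, 12.81, 13.22 and 13.84 in villi, without overlap (-1.24 ± 0.25, adjusted p = 9.89e-05). E2f3 (-1.17), Rbl2 (-0.93), Rb1 (-0.80), the retinoblastoma protein, and Mdm2 (-0.87) were also higher in villi, the last with a call lost without crypt array 2 (-0.76) or 4 (-0.75) or villus array 3 (-0.78) or 4 (-0.70), with a replicate block and with blanks set to a floor. The inhibitors Cdkn1b (0.25) and Cdkn2b (-0.35) and the members Rbl1, Ccnd3 and E2f4 did not pass.

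All 30 tested genes of ribosome biogenesis were higher in crypts, out of 40 on the array, from 0.74 for Ebna1bp2 to 2.98 for Nop56, a core protein of the particles that methylate ribosomal RNA. Nop56 measured 11.60, 11.75, 11.63 and 12.04 in crypts and 8.92, 8.99, 8.62 and 8.57 in villi (7.86-fold, adjusted p = 9.68e-08). Nhp2 (2.42), Gar1 (2.32) and Dkc1 (2.16), which belong to the complex that makes pseudouridine in ribosomal RNA, and Nolc1 (2.27) and Mybbp1a (2.02) came next. The smallest p-value of the whole comparison, 1.09e-10 after adjustment, belonged to Snhg1, a host transcript of small nucleolar RNAs, which measured 12.54 to 12.92 in crypts and 9.36 to 10.19 in villi (2.94 ± 0.25). Snhg12, another such host, differed by 2.71 ± 0.33. Over the 29 members measured on all arrays the mean level was 10.50 to 10.83 in crypts and 9.17, 9.39, 8.67 and 8.52 in villi, and without villus arrays 1 and 2 the median of the 29 members still tested was 2.01, against 1.79 for the same genes with all arrays.

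Genes of the stem cells at the crypt base were higher in crypts in 8 of 10 tested cases, of 15 on the array, and 0 were higher in villi (median 1.66). Olfm4, a secreted glycoprotein of crypt base cells, measured 14.37, 14.80, 15.20 and 15.04 in crypts and 12.99, 13.06, 11.83 and 11.13 in villi (2.60 ± 0.52, adjusted p = 0.000111). Smoc2, a matricellular protein that marks the same cells, measured 10.53, 10.95, 10.83 and 11.16 in crypts and 8.96, 8.97, 8.12 and 7.29 in villi (2.53 ± 0.37). Neither gene overlapped, and villus arrays 1 and 2 were again the higher villus values. Slc12a2 (2.40), Cdca7 (2.06), Igfbp4 (1.75) and Prom1 (1.57) followed, while Rgmb (0.57) and Rnf43 (-0.19) did not pass. Lgr5, the receptor that defines these stem cells, was measured on 4 crypt and 2 villus arrays and was not tested. Of the Wnt receptors and targets 4 of 16 were higher in crypts and 5 in villi (median -0.01, the same as over all tested genes). Sox4 (2.49 ± 0.29), Myc (2.29 ± 0.47, measured on 3 of 4 villus arrays), Ccnd1 and the adhesion receptor Cd44 (1.29) were the 4 in crypts. Axin2, a direct Wnt target, measured 9.62 to 9.84 in crypts and 9.45 to 9.84 in villi, with full overlap (0.02 ± 0.39). On the villus side stood Sp5 (-1.34), Tcf7l2 (-1.13), Gsk3b (-0.83), Ctnnb1, which encodes beta-catenin (-0.76 ± 0.16), and Apc. Apc, the negative regulator of beta-catenin that the genetic arm mutates, measured 10.02, 10.03, 10.18 and 10.05 in crypts and 10.72, 10.47, 10.64 and 10.78 in villi (-0.58 ± 0.20, adjusted p = 0.0125). With blanks set to a floor the calls of Gsk3b (adjusted p = 0.345) and Tcf7l2 were lost, and that of Tcf7l2 also without crypt array 1 (-0.95), crypt array 2 (-1.12), villus array 3 (-1.07) or villus array 4 (-0.94).

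All 7 tested markers of Paneth cells were higher in crypts, of 9 on the array, and here the villus arrays differed widely among themselves. Lyz1, the lysozyme of Paneth granules, measured 16.19, 16.02, 16.13 and 16.02 in crypts and 15.89, 15.59, 14.27 and 13.98 in villi (1.15 ± 0.41, 2.22-fold, adjusted p = 0.018). The alpha-defensin Defa39 measured 15.63, 15.18, 15.35 and 15.38 in crypts and 15.07, 14.76, 13.06 and 12.61 in villi (1.51 ± 0.49). The crypt values of both genes lay within 0.5 of each other, and villus arrays 1 and 2 reached to within 0.5 of the lowest crypt value. Ang4, an antimicrobial ribonuclease, measured 13.92 to 14.22 in crypts and 13.50, 12.71, 11.27 and 10.93 in villi (2.01 ± 0.54). The matrix protease Mmp7, which activates alpha-defensins, differed by 2.07 ± 0.38, the lectin Itln1 by 1.69 ± 0.51, the phospholipase Pla2g2a by 1.04 ± 0.31 and the pentraxin-like Mptx1 by 1.77 ± 0.66, and only Mptx1 of the 7 had overlapping groups. Without villus arrays 1 and 2 the median of the 7 was 2.57 against 1.69, with Lyz1 at 1.96 ± 0.46, Defa39 at 2.55 and Itln1 at 2.57. The calls of Lyz1 and Defa39 were lost without villus array 3 (0.93 and 1.24) or villus array 4 (0.83 and 1.09), and that of Mptx1 without either of these (1.37 and 1.46) or without crypt array 2 (1.66) or 4 (1.59). Lyz2, a lysozyme of macrophages whose sequence is close to that of Lyz1, moved with them (1.74 ± 0.39), and the other 5 tested myeloid markers did not pass.

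**Figure D2:**
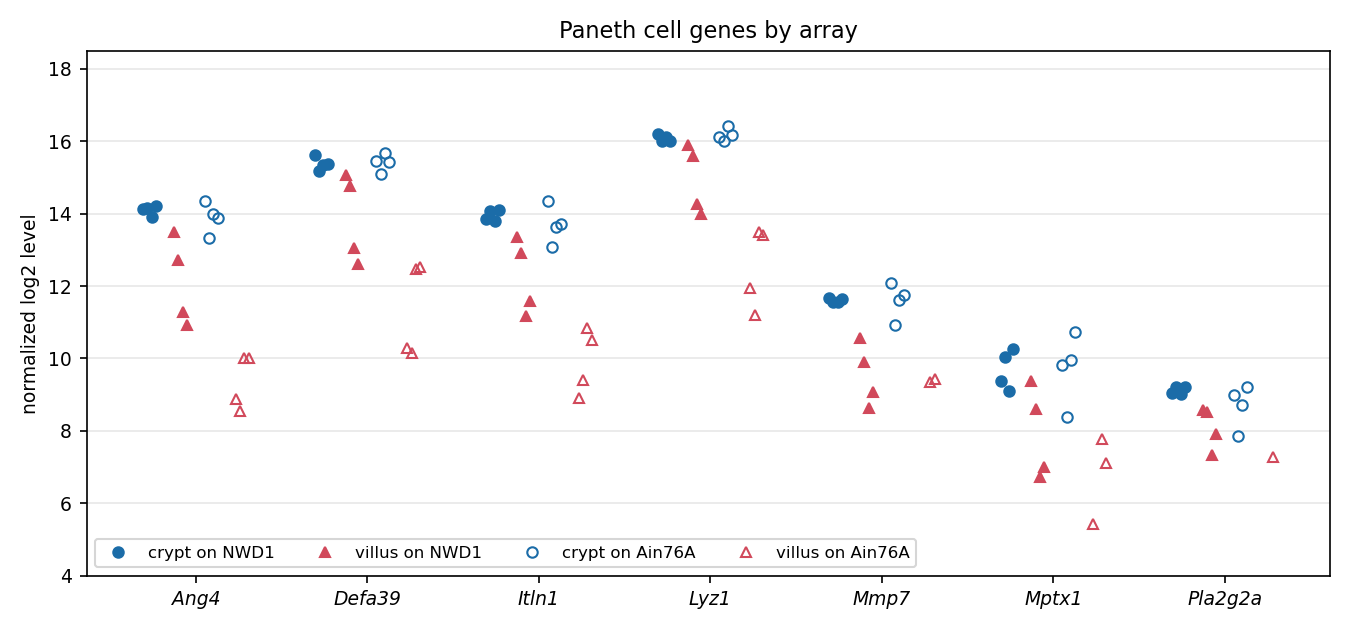
Normalized log2 levels of the 7 tested Paneth cell markers on each crypt and villus array on NWD1 (filled symbols) and Ain76A (open symbols), 1 point per array. On NWD1 the Lyz1 values of villus arrays 1 and 2 (15.89 and 15.59) sit close to the crypt values of 16.02 to 16.19, while the Ain76A villus values lie between 11.19 and 13.48.

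The villus side was led by a few genes with very large differences. Pmp22, a membrane protein of tetraspan type, measured 8.39, 6.48, 8.66 and 6.70 in crypts and 13.38, 13.99, 12.81 and 15.07 in villi (-6.26 ± 0.75, 76.4-fold, adjusted p = 6.13e-08). Clca4a, a secreted protein once counted among chloride channel regulators, measured 9.35, 9.21, 10.55 and 9.10 in crypts and 15.01, 15.22, 15.08 and 15.96 in villi (-5.77 ± 0.64, 54.4-fold). Both left a gap of more than 4 log2 units between the lowest villus and the highest crypt array. Enzymes of extracellular and cellular nucleotide breakdown were next: Enpp3, a nucleotide pyrophosphatase of the apical membrane, measured 9.56 to 10.83 in crypts and 14.53 to 15.61 in villi (-4.75 ± 0.49). Ada, adenosine deaminase, measured 10.45 to 10.99 in crypts and 14.58 to 16.25 in villi (-4.70 ± 0.51). Gda (-2.29), Xdh, which makes uric acid (-2.07), and Upp1 (-1.04) were also higher in villi, so that 5 of the 10 tested genes of purine and nucleoside handling were, while Slc29a1 (1.10), an equilibrative nucleoside transporter, and Slc28a3 (0.80) were higher in crypts. Cda (-0.57), Pnp (-0.26) and Ampd3 (-0.23) did not pass. Slc29a1 lost its call without crypt array 4 (0.98) or villus array 4 (0.95), and Slc28a3 lost its own without crypt array 2 (0.74) or 4 (0.73) or villus array 3 (0.56). The other leading villus genes included Ptprr, a tyrosine phosphatase (-4.10), Npl, an enzyme of sialic acid breakdown (-3.96), Tmigd1 (-3.92), the monocarboxylate transporters Slc5a8 (-3.58) and Slc5a12 (-3.56), the kinase Sgk2 (-3.51), Mxd1, a MAX partner that opposes Myc (-3.47), Susd2 (-3.45) and S100a6 (-3.44).

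Digestive enzymes of the brush border were higher in villi in 13 of 14 tested cases, of 16 on the array (median -1.80, against 22.8% of all tested genes called in that direction). Treh, which splits trehalose, measured 12.48, 12.15, 12.54 and 11.12 in crypts and 13.66, 13.85, 14.25 and 14.30 in villi (-1.94 ± 0.46, adjusted p = 0.000685). Ace, a dipeptidase, measured 11.95, 11.56, 12.17 and 10.51 in crypts and 13.75, 13.20, 13.29 and 13.58 in villi (-1.91 ± 0.70, adjusted p = 0.0223). Neither gene overlapped, and crypt array 4 held the lowest value of both; the call of Ace was lost without that array (-1.56) and without villus arrays 1 and 2 (-1.89). Xpnpep2 (-2.31), Naaladl1 (-2.19) and Mep1a (-1.84), all peptidases, were similar in size, and Xpnpep2 lost its call without villus arrays 1 and 2 (-1.84). Anpep, aminopeptidase N, did not overlap between the groups but did not pass (-1.33 ± 0.74, adjusted p = 0.136). The largest difference of the group, that of the alkaline phosphatase Akp3, rested on part of the villus arrays: 8.38, 7.41, 7.05 and 6.40 in crypts and 8.09, 7.57, 11.47 and 12.78 in villi (-2.67 ± 0.89), with overlap, and its call was lost without villus array 3 (-2.17) or villus array 4 (-1.73), while without villus arrays 1 and 2 it was -4.81. Over the 14 enzymes the mean level was 12.55, 12.48, 12.55 and 11.60 in crypts and 13.87 to 14.30 in villi.

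Transporters of nutrients were higher in villi in 19 of 26 tested cases and higher in crypts in 1 (median -1.42). Slc6a19, the apical carrier of neutral amino acids, measured 11.50, 11.67, 12.22 and 10.32 in crypts and 14.31, 14.29, 14.29 and 14.53 in villi (-2.93 ± 0.50, 7.62-fold, adjusted p = 1.01e-05). Slc46a1, the proton-coupled carrier of folate, measured 10.75, 9.55, 10.19 and 8.78 in crypts and 11.60, 11.73, 13.59 and 12.90 in villi (-2.64 ± 0.56). Villi varied by 0.24 for Slc6a19 and by almost 2 log2 units for Slc46a1, with arrays 1 and 2 the lower. Slc34a2, a phosphate carrier (-3.34, measured on 3 crypt arrays), Abca1, which exports cholesterol (-2.86), Slc13a2 (-2.22) and the peptide carrier Slc15a1 (-2.20) were also higher in villi, and Slc13a2 lost its call without crypt array 4 (-1.81). Slc1a1, a glutamate carrier, was the member higher in crypts (1.25 ± 0.30; 10.75 to 11.10 against 8.99 to 10.39). The iron exporter Slc40a1 (-0.55), the iron importer Slc11a2 (-0.08), Slc6a20a (-0.86), Slc7a8 (-0.73), Slc13a1 (-0.51) and Slc16a1 (0.84) did not pass.

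Lipid absorption and chylomicron genes were higher in villi in 18 of 22 tested cases and higher in crypts in 0 (median -1.13). Apob, the scaffold protein of chylomicrons, measured 12.84, 12.48, 12.96 and 11.73 in crypts and 14.61, 14.81, 14.96 and 14.85 in villi (-2.31 ± 0.46, 4.95-fold). The apolipoproteins Apoc3 (-2.19) and Apoc2 (-2.06), the fatty acid receptor Cd36 (-2.07), the acyltransferase Gpat3 (-1.80) and the transcription factor Creb3l3 (-1.71) followed, and Cd36 lost its call without villus arrays 1 and 2 (-1.90). Fabp1, the liver-type fatty acid binding protein, measured 16.41 to 16.71 in crypts and 16.53 to 16.71 in villi (0.01 ± 0.17), near the top of the scale of these arrays. Fabp2 (-0.51), Apoa1 (-0.48) and the lipid droplet protein Plin2 (0.47) did not pass either. Fatty acid oxidation did not follow absorption: 18 of its 26 tested genes did not pass, 5 were higher in crypts and 3 in villi (median 0.03, or -0.13 with the deposited scaling), with Vnn1 (-2.34), Acaa1b (-1.42) and Hadh (-0.58; not called with the deposited scaling, -0.25) on the villus side and Acot1 (1.67) on the crypt side. Cholesterol synthesis had 5 of 19 tested genes higher in crypts, a share near the 24.6% of all tested genes, led by Idi1 (1.32 ± 0.34), and 1 higher in villi, Sc5d (-0.73), whose call was lost without villus arrays 1 and 2 (-0.68). Of 48 genes of the mitochondrial respiratory chain 9 were higher in crypts and 1 in villi, none by a log2 of 1 or more (0.99 for Ndufs8 and -0.51 for Ndufa1 at the ends; median 0.22), and the call of Ndufa1 was lost without villus array 3 (-0.41) and with the deposited scaling (-0.39).

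Proteins that build the microvillus were higher in villi in 12 of 15 tested cases (median -1.52). Krt20, a keratin of differentiated cells, measured 13.74, 13.84, 13.94 and 13.35 in crypts and 15.37, 15.55, 15.58 and 15.98 in villi (-1.90 ± 0.20, adjusted p = 5.53e-09). Espn, which bundles actin (-2.54), the protocadherins Cdhr2 (-2.03) and Cdhr5 (-1.82) of the links between microvilli, Ezr (-1.77) and Eps8 (-1.74) were the other large differences. Ush1c (-0.60), Baiap2l1 (-0.41) and Myo1d (-0.32) did not pass. Junction genes mostly did not differ beyond the spread (9 of 14 did not pass), but Cldn2, a claudin that forms a cation pore, was higher in crypts (1.99 ± 0.38; 10.80 to 12.10 against 9.09 to 10.12), and Cgn (-0.95) and F11r (-0.80) were higher in villi. Cdh17 (-0.61) and Cldn7 (-0.50) were called on the villus side too, but the call of Cdh17 was lost without villus arrays 1 and 2 (-0.58), that of Cldn7 without crypt array 3 (-0.47) or villus array 4 (-0.41), and both with the deposited scaling (-0.41 and -0.37). Ion transport divided between the compartments: 6 of 20 tested genes were higher in crypts and 9 in villi. On the crypt side were the basolateral potassium channels Kcnn4 (11.62 to 12.26 in crypts, 7.63 to 9.97 in villi; 2.91 ± 0.35) and Kcnq1 with its partner Kcne3 (1.93 and 2.71), the water channel Aqp4 (2.41) and the chloride loader Slc12a2 (2.40). On the villus side were Clca4a, the sodium-proton exchanger Slc9a2 (-1.96 ± 0.31) and the peptide hormone uroguanylin, Guca2b (-1.68). The chloride channel Cftr was at 0.82 ± 0.36 (adjusted p = 0.06), and Guca2a, Atp1b1, Slc26a3 and Aqp1 did not pass.

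**Figure D3:**
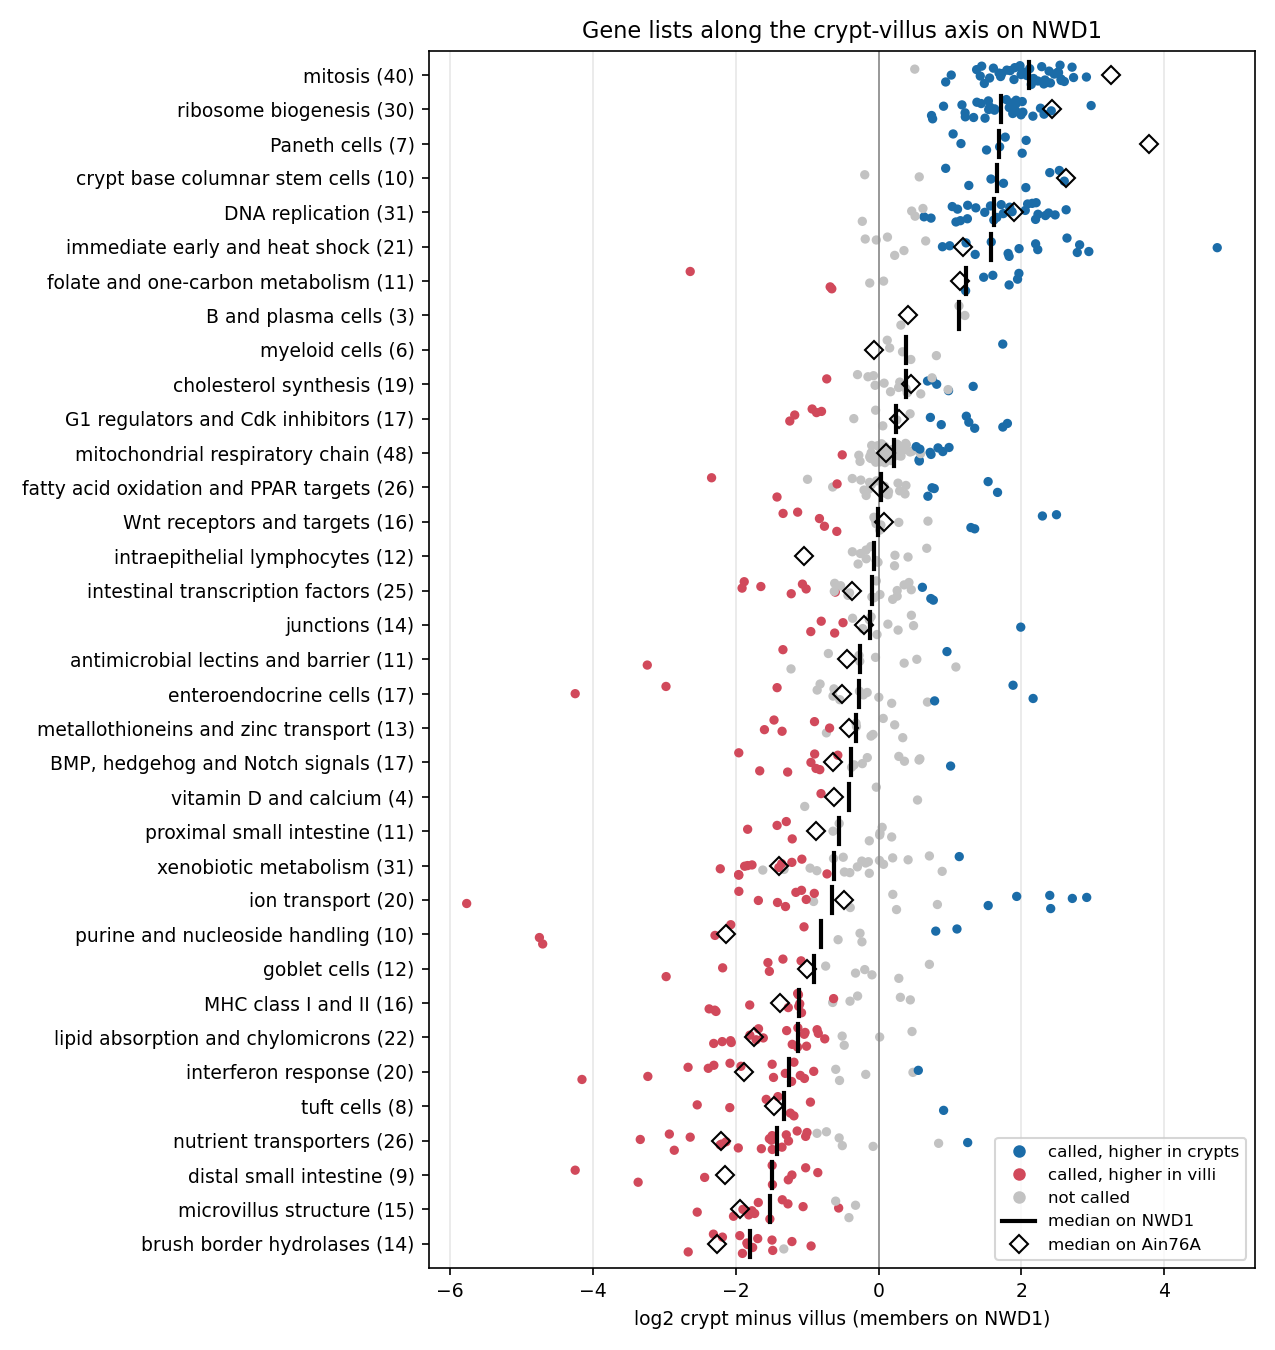
Log2 differences, crypt minus villus on NWD1, of the tested members of each gene list, 1 point per gene, with the list's median on NWD1 and on Ain76A; the Ain76A median covers the members tested there. Mitosis (median 2.10), ribosome biogenesis (1.71) and Paneth cells (1.69) lie on the crypt side, and brush border hydrolases (-1.80) and microvillus structure (-1.52) on the villus side.

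Xenobiotic metabolism was higher in villi for 11 of 31 tested genes (22.8% of all tested genes were) and in crypts for 1, and 19 did not pass (median -0.63). Cyp3a11, a broad-specificity cytochrome, measured 14.32, 13.77, 14.61 and 12.94 in crypts and 15.70 to 15.85 in villi (-1.88 ± 0.51), and the efflux pumps Abcb1a and Abcc2 both differed by -1.96. Ugt2b35 was higher in crypts (1.13 ± 0.33). In folate and one-carbon metabolism, on which the low methyl donor content of NWD1 bears, members lay on both sides, with 6 of 11 tested higher in crypts and 3 in villi: Slc46a1 was higher in villi (above), while Shmt2 (1.96 ± 0.36), Mthfd1 (1.95 ± 0.25), the maintenance methyltransferase Dnmt1 (1.83), Shmt1 (1.60), Mthfd2 (1.47) and Ahcy (1.22) were higher in crypts. Dnmt3a (-0.12) and Mat2b (0.07) did not pass. Chdh (-0.68) and Aldh1l1 (-0.66) were called on the villus side, but Chdh lost its call without crypt array 1, 3 or 4 or villus array 1, 2 or 3 (-0.67 to -0.63), and Aldh1l1 without crypt array 3 or 4 or villus array 1 or 3 (-0.62 to -0.60). Vdr, the vitamin D receptor, measured 11.27 to 11.77 in crypts and 11.27 to 12.03 in villi (-0.03 ± 0.17). Of the vitamin D and calcium genes only 4 of 12 on the array could be tested, and 1, Rxra (-0.81), passed, a call lost with blanks set to a floor (adjusted p = 0.238). The metallothionein Mt1 measured 13.11, 13.95, 14.35 and 12.93 in crypts and 12.30, 13.55, 14.88 and 12.27 in villi (0.34 ± 0.41), so that its spread within a group was larger than the difference.

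Among the transcription factors of the intestine 15 of 25 did not pass, 7 were higher in villi and 3 in crypts. The villus count is near the 22.8% of all tested genes called in that direction, and 24.6% were called toward crypts. Klf4, which accompanies cell cycle exit, measured 12.31 to 12.39 in crypts and 14.03, 13.96, 14.14 and 14.91 in villi (-1.91 ± 0.31, adjusted p = 4.46e-06), and Prdm1 (-1.88), Maf (-1.65) and Gata5 (-1.22) were on the same side. Cdx2 (0.20), Gata4 (0.02), Hnf4g (-0.62) and Foxa1 (-0.09) did not pass, and Hnf4a differed by -0.61 ± 0.20, a call lost without villus array 4 (-0.45). The members on the crypt side, Cdx1 (0.77), Elf3 (0.73) and Klf5 (0.61), lost their calls in several alternatives, all of them without crypt array 1 (0.72, 0.68 and 0.59) or villus array 4 (0.61, 0.71 and 0.60). Of the BMP, hedgehog and Notch genes 8 of 17 were higher in villi and 1 in crypts. Smad7, an inhibitor of TGF-beta and BMP signalling, measured 8.60 to 8.79 in crypts and 10.27, 10.38, 10.75 and 11.22 in villi (-1.96 ± 0.27). The ligand Bmp2 (-1.66) and Atoh1, the factor of the secretory lineage (-1.27), were higher in villi too. Hes1, a Notch target, was higher in crypts (1.01 ± 0.31), a call lost without villus array 3 (0.75). The receptors and ligands Dll1, Jag1, Notch1 and Ptch1 did not pass.

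Markers of the secretory and sensory cells did not share 1 side. Goblet cell genes were higher in villi in 6 of 12 tested cases and in crypts in 0 (median -0.91). Muc2, the gel-forming mucin, measured 13.04, 12.66, 13.08 and 13.33 in crypts and 15.08, 15.04, 15.25 and 15.47 in villi (-2.18 ± 0.28, adjusted p = 2.34e-07), and Clca1, a mucus protease, 11.40 to 11.89 and 14.19 to 14.94 (-2.97 ± 0.39). Sytl2 (-1.55), Fcgbp (-1.53), Zg16 (-1.34, or -0.78 with the deposited scaling) and Tff3 (-1.08), secreted or granule proteins, followed. Spdef (-0.74), Ern2 (-0.32), Galnt12 (-0.19), Creb3l1 (-0.09), Agr2 (0.28) and Spink4 (0.71), which include factors of secretory maturation, did not pass. Villus arrays 1 and 2 did not stand apart for goblet genes (mean levels of 13.02, 13.02, 13.21 and 13.34). Hormones split by gene: neurotensin, Nts, measured 8.56, 8.40, 9.64 and 7.90 in crypts and 12.67, 12.24, 13.67 and 12.90 in villi (-4.25 ± 0.70, 19.0-fold), and somatostatin, Sst, and secretin, Sct, were also higher in villi (-2.98 and -1.42), Sct with a call lost when blanks were set to a floor (adjusted p = 0.0623). Proglucagon, Gcg, measured 12.06, 11.44, 12.15 and 11.96 in crypts and 10.10, 9.88, 9.69 and 9.29 in villi (2.16 ± 0.42), and Tac1 differed by 1.88 ± 0.28. Cck (0.18), Ghrl (0.00), Gip (-0.64) and Chga (0.68) were among 11 of 17 that did not pass, and Chgb passed at an adjusted p of 0.0488 (0.78), a call lost in 11 of the alternatives tried, among them without villus array 2 (0.56). Tuft cell markers were higher in villi in 7 of 8 cases, led after Espn by the kinase Dclk1 (-2.08 ± 0.40), Rgs13 (-1.57) and the channel Trpm5 (-1.41; adjusted p = 0.0506 with blanks set to a floor), and Cd24a was higher in crypts (0.91 ± 0.34), with overlapping groups and a call lost without crypt array 3 or 4 or villus array 2 or 4 (0.71 to 0.84) and without villus arrays 1 and 2 (0.82). Of the tuft markers on the array, Pou2f3, Gfi1b, Il25 and Sh2d6 were blank on all 8 arrays.

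Genes of the interferon response were higher in villi in 15 of 20 tested cases, of 34 on the array (median -1.26). Ifit1, an interferon-induced RNA sensor, measured 7.77, 7.56, 7.50 and 6.48 in crypts and 10.06, 9.84, 12.03 and 10.28 in villi (-3.23 ± 0.45, 9.38-fold, adjusted p = 5.68e-07). Ido1, which breaks down tryptophan, was measured on 3 crypt arrays at 6.86 to 8.24 and on the villus arrays at 10.50, 10.88, 12.23 and 12.48 (-4.15 ± 0.48). Villus arrays 1 and 2 were the lower ones for Ido1, and villus array 3 was the highest for Ifit1. Oasl2 (-2.67), Oasl1 (-2.38), Rsad2 (-2.31) and Usp18 (-2.08) followed. The GTPase Irgm1 went against the list (0.56 ± 0.20), a call lost without crypt array 3 (0.49) or villus array 4 (0.45), and Oas1a, Gbp7, Irf1 and Irf8 did not pass. Of the MHC genes 11 of 16 were higher in villi and 0 in crypts, and the largest differences belonged to class II: H2-Ab1 measured 10.17 to 11.07 in crypts and 12.60 to 13.05 in villi (-2.37 ± 0.47), with H2-Aa (-2.29), the invariant chain Cd74 (-2.28) and H2-Eb1 (-1.80) beside it; the call of H2-Eb1 was lost without villus arrays 1 and 2 (-1.75). Class I genes differed less, as in H2-D1 (-1.26 ± 0.25) and B2m (-1.08 ± 0.19). The immunoproteasome genes Psmb9 (0.30) and Psmb10 (0.44), with Tap1, Nlrc5 and H2-T3, did not pass. Among 11 tested lectins and barrier genes 2 were higher in villi, Ceacam20 (-3.24 ± 0.39) and Zg16, and 1 in crypts, Reg4 (0.96), a call lost in most alternatives (0.43 without villus arrays 1 and 2), while Reg3g (-0.70), Reg3b (-0.27), Reg1 (0.54) and Pigr (-0.26) did not pass.

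Markers of lymphocytes inside the epithelium did not separate the compartments. Of 24 on the array 12 could be tested, and none of these passed in limma. Their median was -0.07, or -0.41 without villus arrays 1 and 2, from -0.37 for Klrd1 to 0.67 for Ptpn22. Gzmb, a granule protease, measured 11.53, 10.27, 11.36 and 10.93 in crypts and 10.52, 9.76, 11.75 and 11.13 in villi. The mean over 11 of these markers was 9.46 to 10.30 in crypts and 9.18 to 10.45 in villi. The part of lymphocytes in the MHC and interferon differences was not tested. The immunoglobulin heavy chain Igha measured 13.63, 13.74, 13.00 and 14.27 in crypts and 12.04, 11.26, 14.35 and 12.17 in villi, with villus array 3 the highest of all 8 (1.21 ± 0.60, adjusted p = 0.0943, and 0.40 without villus arrays 1 and 2). Of 25 markers of stroma, muscle and vessels 0 could be tested and 13 were blank on all 8 arrays, among them Pecam1, Pdgfra, Des and Myh11. Of 12 markers of pancreatic and fat tissue 7 were blank on all 8, and of the 2 that could be tested Cidec, a lipid droplet protein, was higher in villi (-2.81). Of the red blood cell markers 0 could be tested.

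Immediate early and heat shock genes were higher in crypts in 15 of 21 tested cases and in villi in 0 (median 1.58). Hspa1b, an inducible chaperone, had the largest crypt-side difference of the whole comparison: 14.92, 14.53, 15.64 and 15.43 in crypts and 9.52, 9.53, 11.83 and 10.68 in villi (4.74 ± 0.54, 26.7-fold, adjusted p = 2.22e-08). Egr1, an early response factor, measured 13.41, 13.16, 13.22 and 13.52 in crypts and 9.88, 9.86, 10.11 and 11.69 in villi (2.94 ± 0.32). Neither gene overlapped, and here villus arrays 1 and 2 were the lowest villus arrays. Hsph1 (2.81), Dusp1 (2.78), Nr4a1 (2.64, measured on 3 villus arrays) and Fosb (2.23) followed. Fos itself measured 14.35 to 14.40 in crypts and 13.34, 13.88, 14.02 and 14.86 in villi, with overlap (0.35 ± 0.32), and Junb, Jund, Zfp36, Klf6 and Bag3 did not pass. Ccn1, a matricellular early response gene outside the list, differed by 3.08 ± 0.40. These genes are known to respond to tissue handling as well as to growth signals; their part in the other differences was not tested. Without villus arrays 1 and 2 the median of the list was 1.12 and 12 of its 21 members were called, and Dusp1 differed by 1.85 and Fosb by 1.30, which was no longer called.

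**Figure D4:**
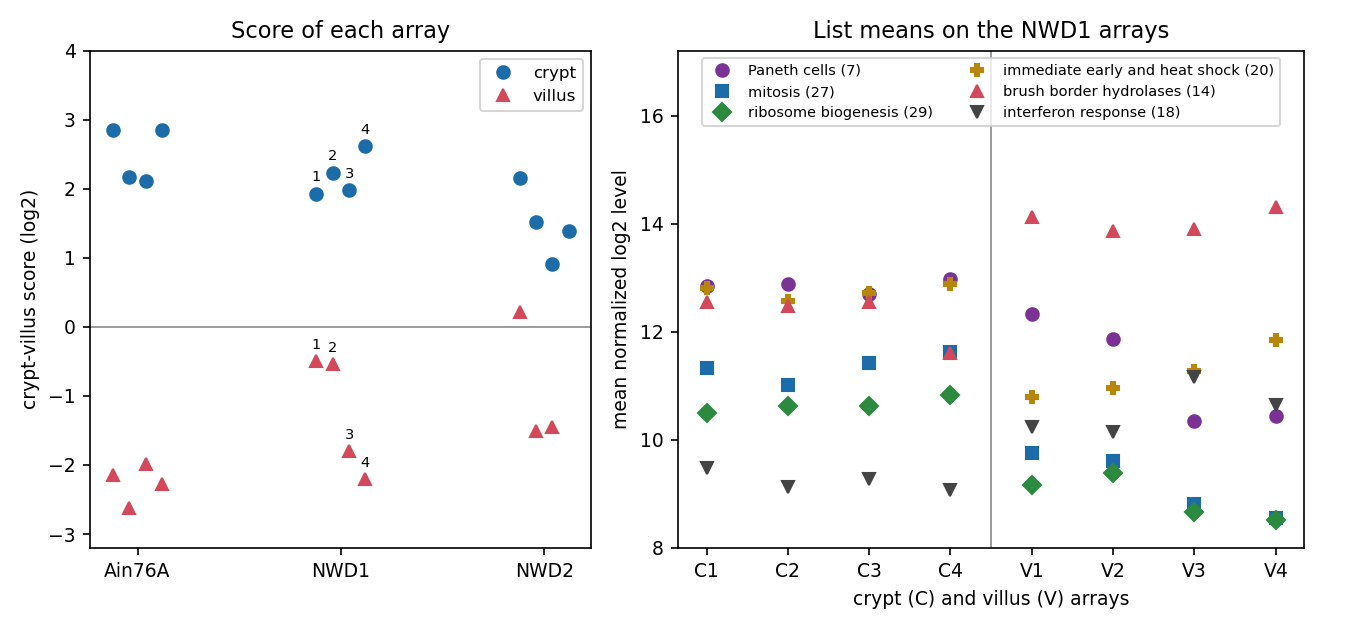
Left, the crypt-villus score of each array on the 3 diets, with the NWD1 arrays numbered (1 villus array on NWD2 lies above 0, at 0.21); right, mean log2 level of 6 gene lists on each of the 8 NWD1 arrays, over the members measured on all 8. Villus arrays 1 and 2 lie above villus arrays 3 and 4 for Paneth cells (12.33 and 11.86 against 10.34 and 10.44) and mitosis (9.76 and 9.61 against 8.81 and 8.55), and crypt array 4 is the lowest crypt array for brush border hydrolases (11.60).

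Position along the intestine was looked at through markers of its ends. Of the distal markers 9 of 9 tested were higher in villi (median -1.49), among them Nts and Cubn, the receptor for intrinsic factor (-3.37 ± 0.96), and of the proximal markers 4 of 11 were, led by Lct, lactase (-1.83 ± 0.43). Over 11 proximal markers the villus arrays had mean levels of 12.84, 12.73, 13.78 and 13.38, with arrays 1 and 2 the lower, and the crypt arrays 12.38 to 12.83. The ileal bile acid binding protein Fabp6 measured 7.68, 6.76 and 7.14 on 3 crypt arrays and 12.86, 8.74, 7.94 and 8.98 in villi, so that villus array 1 alone was high, and its call was lost without that array (-1.36) and without villus arrays 1 and 2 (-1.26). Over 8 distal markers the villus means were 13.74 to 13.79, and whether the arrays held different lengths of intestine was not tested.

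Some genes could be described only by where they were measured. Of the 8224 genes with a kept probe set, 52 were measured on all 4 crypt arrays and on 0 villus arrays, and 47 on all 4 villus and 0 crypt arrays; 39 of the 52 were also blank on all 4 Ain76A villus arrays, and 33 of the 47 on all 4 Ain76A crypt arrays. A blank is not a level, and no fold is given. The representing probe set had values in crypts only for Pkp1 (10.24 ± 0.30, SD, n = 4), the exosome subunit Exosc2, Egr2, the receptor Ephb4 (9.48 ± 0.18), Mycn (9.46 ± 0.33), which encodes a relative of Myc, and the mitotic kinase Pkmyt1. It had values in villi only for Lama3, a laminin chain (11.10), Cdc42ep2, Bmp8a (10.69), Ly6m (10.62) and the hormone Pyy (9.83). Other genes had a second probe set that was measured in the blank compartment: Nr4a2, which led the crypt group (10.87 ± 0.37), on all 4 villus arrays, Phgdh (9.71 ± 0.34) and Exosc1 on 3, Krt42 (10.42 ± 0.46) on 2, and the villus gene Bmp1 on 3 crypt arrays. Among genes with several probe sets, 1212 had at least 2 called ones, and in 4 of these (Arfgap2, Crebzf, Mtm1 and Thap4) called probe sets had opposite signs.

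The crypt-villus difference on NWD1 was then set beside that on Ain76A. On Ain76A at 1 year 2165 of 7439 tested genes (29.1%) were higher in crypts and 2162 (29.1%) in villi. Of 7379 genes tested on both diets, 3462 were called on NWD1 and 4297 on Ain76A, and 3303 were called on both in the same direction, which is 95.4% of the NWD1 calls and 76.9% of the Ain76A calls, with 0 in opposite directions. Differences correlated at 0.966 across these genes, which are not independent replicates, but they were smaller on NWD1 with all arrays. The SD over genes was 0.90 against 1.17, and the slope of NWD1 on Ain76A was 0.74. These values were not computed without villus arrays 1 and 2. Without those arrays the median difference between the diets went from -0.61 to -0.26 for ribosome biogenesis and from 0.74 to 0.71 for brush border hydrolases. The limma test of the difference between the diets made 0 calls (0.0%); its lowest adjusted p was 0.585, its unadjusted p lay under 0.05 for 207 genes (2.81%), and every alternative tried also made 0 calls. On NWD2 694 of 7482 genes (9.28%) were higher in crypts and 488 (6.52%) in villi, with 3 villus arrays. With the deposited scaling those counts were 930 and 365, so that the share of crypt-higher calls went from 58.7% to 71.8%. The test of NWD1 against NWD2 also made 0 calls (0.0%) among 7384 genes, as did every alternative tried; its lowest adjusted p was 0.997, and 183 genes had an unadjusted p under 0.05. The 5 smallest p-values toward villi in that test belonged to Rab30 (-3.02 ± 0.80), Cidec (-1.90), Efr3b (-1.33), Slc16a3 (-1.73) and Smad7 (-1.20), and the 5 toward crypts to Sorl1 (1.13), Hibadh (0.49), Gtf2a2 (0.80), Sf3b3 (0.90) and Prkdc (0.82).

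**Figure D5:**
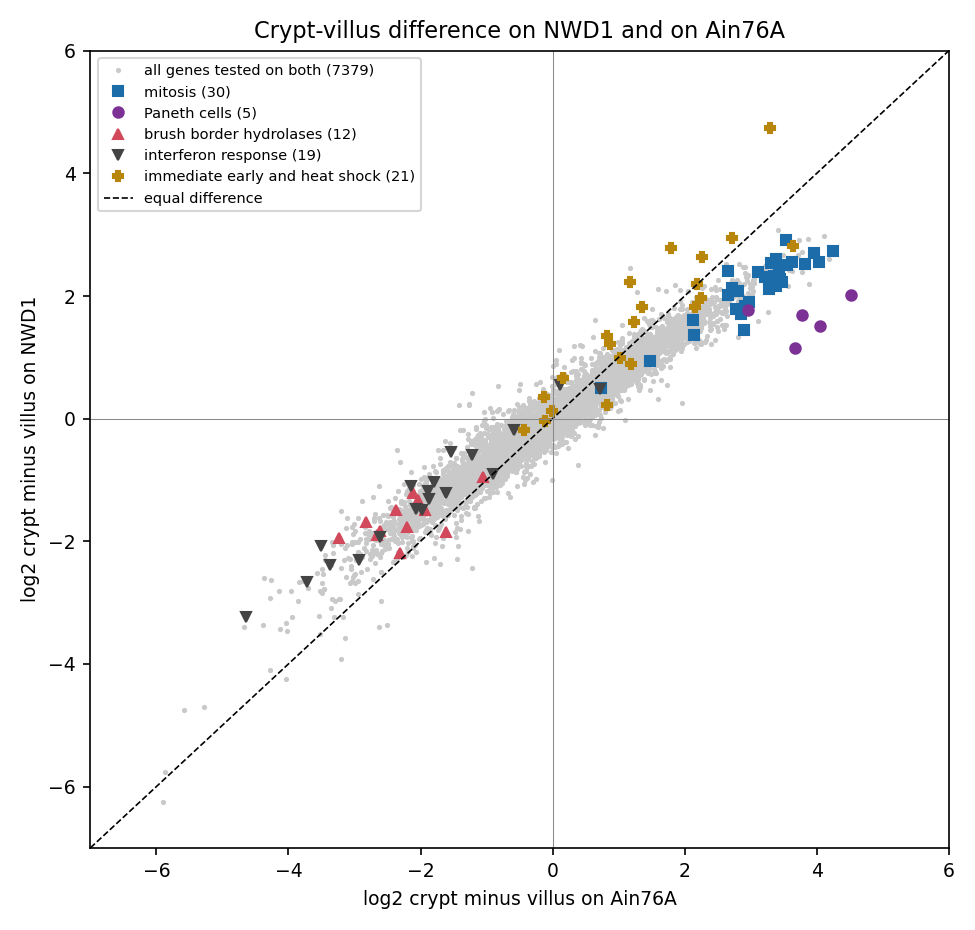
Log2 difference, crypt minus villus, of each tested gene on NWD1 (vertical axis) against Ain76A at 1 year (horizontal axis), 1 point per gene. The points follow 1 line (correlation 0.966 over 7379 genes) with a slope of 0.74, so that differences were on the whole smaller on NWD1.

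The smallest p-values in the comparison with Ain76A belonged to Lyz1 and Defa39, products of Paneth cells, although neither passed the adjustment. Lyz1 differed between crypts and villi by 3.67 on Ain76A and by 1.15 on NWD1, a difference of -2.52 ± 0.57 (unadjusted p = 7.93e-05, adjusted p = 0.585). On Ain76A its crypt level was 16.18 ± 0.17 (SD, n = 4), close to that on NWD1. Both crypt levels lay little below those of Fabp1, near the top of the scale, and whether this limits them was not tested. The villus values of Lyz1 on Ain76A were 11.95, 11.19, 13.48 and 13.41. Every NWD1 villus array was thus above every Ain76A villus array for Lyz1. Defa39 (-2.54 ± 0.70) and Ang4 (-2.50 ± 0.76) differed by like amounts: Defa39 measured 10.30, 10.15, 12.48 and 12.54 in Ain76A villi against 12.61 to 15.07 in NWD1 villi, and Ang4 8.88, 8.55, 10.02 and 10.02 against 10.93 to 13.50, again without overlap. Villus values overlapped for Mptx1 (6.72 to 9.37 on NWD1, 5.43 to 7.77 where measured on Ain76A) and Mmp7 (8.62 to 10.57 against 9.36 and 9.44). How many of all genes lacked such overlap was not counted. Itln1 differed by -2.08 ± 0.72 (unadjusted p = 0.00646). Of 5 Paneth markers tested in both diets 4 had an unadjusted p under 0.05, where 2.81% of all genes did, with a median difference of -2.50, and without villus arrays 1 and 2 there were 2 of 5, with a median of -1.50. Lyz1 then differed by -1.71 ± 0.59 (unadjusted p = 0.00629) and Defa39 by -1.50 ± 0.71. The mean level of 4 Paneth markers was 14.88 ± 0.07 in crypts and 13.29 ± 1.09 in villi on NWD1, and 14.79 ± 0.30 and 10.79 ± 1.01 on Ain76A (SD, n = 4 each).

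The values of other lists also lay apart between the diets, in villi, in crypts or in both, and no gene in them passed the adjustment. The mitosis genes had a median difference of -1.0 between the NWD1 and Ain76A axes, with 14 of 30 at an unadjusted p under 0.05 in limma. Without villus arrays 1 and 2 the median was -0.39 and the count 0. Those arrays were picked for lying toward the crypts, and fewer arrays lower the power, so this drop cannot tell whether the diets differ. The mean level of mitosis genes in villi was 9.42 ± 0.56 on NWD1 and 8.84 ± 0.41 on Ain76A, and in crypts 11.49 ± 0.24 and 11.88 ± 0.14. For brush border hydrolases the median was 0.74, and here the gap lay mainly in the crypts: 13.00 ± 0.45 on NWD1 against 12.11 ± 0.38 on Ain76A, while villi measured 14.64 ± 0.15 and 14.36 ± 0.29. Lymphocyte markers had a median of 1.01 between the axes (0.55 without villus arrays 1 and 2), with levels of 10.01 ± 0.50 in NWD1 villi, 10.81 ± 0.33 in Ain76A villi and 10.08 ± 0.38 and 9.80 ± 0.80 in the crypts. Interferon genes measured 10.55 ± 0.49 in NWD1 villi and 11.47 ± 0.31 in Ain76A villi, and 9.24 ± 0.17 and 9.48 ± 0.15 in crypts. The remaining genes with the smallest p-values were, toward a smaller crypt excess on NWD1, the translation inhibitor Pdcd4 (1.28 on NWD1 and 2.21 on Ain76A; -0.94 ± 0.28) and 2410006H16Rik (-1.04), and, toward a smaller villus excess, the interferon-inducible Trim30a (-1.10 and -2.63; 1.53 ± 0.46), Adh6a, Gal3st2 (1.33), Flywch1 (1.28) and Pxdc1 (1.32). On NWD1 itself the calls of Trim30a and Flywch1 were lost without villus array 3 (-0.74 and -0.75). For immediate early and heat shock genes the median between the axes was small (0.24, with 0 of 21 at an unadjusted p under 0.05).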

How the data were processed

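Total RNA of crypts and villi, purified with Qiagen RNeasy per the labels' protocols, had been labelled as biotin cRNA and hybridised to an Affymetrix mouse 3' IVT array. The deposited values were read as log2 intensities from their range (3.50 to 18.26). The submitters' processing notes name GCOS; its version, the summary method and the reason why 55.2% of all values are blank are not given in the sources used here. Blanks were left out of means and fits and were not imputed. Trimmed means computed from the deposited values differed by up to 1.46-fold between arrays, so the deposited log2 values of all 47 arrays were quantile normalized on the 8350 probe sets measured on every array, with monotone interpolation between them. Probe sets above the median of their array on at least 3 arrays were kept (14937 of 45037 without controls). Probe sets were named from the platform annotation (34945 with 1 symbol, 932 with several, 9160 with none), 1 probe set stood for each gene (8224), and a gene was tested where at least 3 arrays of each group had a value.

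The fit was limma 3.58.1 in R 4.3.3 (lmFit with the 12 groups of tissue, diet and genotype, all 47 arrays sharing 1 estimate of the spread, eBayes with a trend), with Benjamini-Hochberg adjustment over all tested genes and a threshold of 0.05. The same script was tested on simulated data. Single values per array were compared with exact permutation tests in Python 3.11.15. The number of arrays limits the precision. The gene lists and the members they hold were chosen with earlier results of these data known, so a list's count and median are a description. Genes named are the 15 largest differences in each direction among called genes whose groups did not overlap, up to 6 called members of each list with its members that were not called or went the other way, the 5 smallest p-values in each direction of the comparisons between diets, the leading genes measured in 1 compartment only, Cdkn1a and Apc. Marker genes named as blank or untested, such as Pole, Orc6, Lgr5, Pou2f3 and Pecam1, were picked after their values were seen. Alternatives were the deposited scaling, no filter, complete genes only, blanks set to a floor (the 1st percentile of the array), only the compared groups in the fit, other variance models, every kept probe set or another choice of probe set, a replicate block, a size threshold, each array left out in turn, and villus arrays 1 and 2 left out together.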

Additional observations from a re-analysis of the deposited data

Results flagged for a closer look

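In 7 of 136 groups of 4 arrays that were checked, 1 array lay far from the other 3 by Dixon's criterion, which chance meets in about 5% of groups. Crypt array 4 was the low array in 4 of them, all lists of absorptive cells. Its mean level was 11.60 for brush border hydrolases (the other crypt arrays lay at 12.48 to 12.55), 10.70 for nutrient transporters (11.36 to 11.40), 12.65 for lipid absorption and chylomicrons (13.31 to 13.43) and 11.97 for microvillus structure (12.36 to 12.41). These lists share the array and the cell type, so they are not separate observations. For Clca4a, crypt array 3 was the high one at 10.55, against 9.10 to 9.35 on the other crypt arrays and 15.01 or more in villi. For Egr1, villus array 4 was the high one at 11.69, against 9.86 to 10.11. For the monocarboxylate transporter Slc5a8, villus array 3 was the low one at 9.39, against 11.24 to 11.55.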

How the results depend on the processing

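With 8 arrays, 2 of which lie toward the other tissue, the sizes on NWD1 are less certain than the directions. Every array kept, the count of 3619 genes stayed within 1.5 times (3447 to 4861) under the alternatives but 2: testing every kept probe set called 6465, and asking for a log2 of at least 1 left 1836, fewer by construction. Leaving out 1 array called 2944 to 3347 genes, and leaving out villus arrays 1 and 2 3138. Same-numbered crypt and villus arrays deviated with correlations of -0.12, 0.26, 0.11 and -0.18, and other-numbered ones with -0.35 to 0.23. Whether a number marks 1 mouse cannot be told from these values. With a replicate block the count was 3926, of which 3580 were shared. Both comparisons between diets made 0 calls in limma under every alternative, with 39 to 984 genes at an unadjusted p under 0.05 against Ain76A and 45 to 577 against NWD2, the replicate block giving 380 and 364, and leaving out 1 array 0 calls throughout. The score difference was 3.45, 2.23 with genes a log2 of at least 1 apart, and 3.42 with the deposited scaling. Without villus arrays 1 and 2 some list medians moved by more than the spread of the list's mean between villus arrays. They went to 2.85 for mitosis, 0.14 for G1 regulators, 0.68 for folate, -0.05 for fatty acid oxidation and -0.14 for Wnt. Transcription factors went to -0.20, junctions to -0.22, ion transport to -0.37 and BMP, hedgehog and Notch to -0.65. Enteroendocrine cells went to -0.83, goblet cells to -1.09, proximal markers to -1.12 and distal markers to -1.30. Some lists lost members that could no longer be tested. Over the same genes the medians with all arrays were 2.33 for mitosis, 0.16 for G1 regulators, 0.64 for folate and -0.03 for fatty acid oxidation. For these lists the move over the same genes lay within the spread. The same-gene medians were -0.04 for Wnt and -0.47 for BMP, hedgehog and Notch. The medians of the other lists moved within that spread, among them B and plasma cells (1.12 to 0.40), lymphocytes (-0.07 to -0.41), myeloid cells (0.39 to 0.14) and tuft cells (-1.32 to -1.79). With the deposited scaling they moved to 1.03 for folate, -0.07 for barrier genes, -0.13 for fatty acid oxidation, -0.23 for transcription factors, -0.53 for BMP, hedgehog and Notch, -0.67 for goblet cells, -0.98 for MHC, -0.99 for purine handling and -1.31 for distal markers; the cause was not tested. Of 198 named genes called on NWD1, 159 were called under every alternative that tested them and 39 were not under at least 1, and 0 changed sign. Blanks limit low genes: 600 of 8224 could not be tested.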
